A study of Canis lupus familiaris with 34 samples.

Results

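Retinoic acid synthesis and signalling was followed through 10 genes in the mitral valves of 34 Cavalier King Charles Spaniels. They are RDH10 and DHRS3, which interconvert retinol and retinal, ALDH1A1, ALDH1A2 and ALDH1A3, which oxidize retinal to retinoic acid, CYP26B1, which breaks retinoic acid down, CRABP2, which carries it inside the cell, and the nuclear receptors RARA, RARB and RARG. A gene was taken by its symbol among the 23768 features of the count table, and its canine RefSeq feature was used where both a canine RefSeq and a human XenoRefSeq feature were listed. All 10 genes were found, and all 10 were among the 19568 features that held 100 counts or more over all dogs. The 10y-noCHF group held 19 dogs (10 females and 9 males) and the 10y-MMVD-CHF group 15 dogs (6 females and 9 males) with congestive heart failure (CHF) caused by myxomatous mitral valve disease (MMVD). Both groups were dogs of about 10 years of age from the same breed, and each library came from the valve of 1 dog. By the study's description, nearly all dogs of the group without failure also had valve disease, at earlier stages. The stage of each dog was not paired with the libraries here.

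Retinoic acid is made from vitamin A (retinol) in a pair of oxidation steps. Retinol dehydrogenases such as RDH10 form retinal, DHRS3 reduces retinal back to retinol, and the ALDH1A enzymes carry out the last, irreversible step. Retinoic acid then binds RAR receptors, which pair with RXR receptors on DNA and switch target genes on, and CYP26 enzymes remove it. In the embryo this pathway acts in the patterning of the heart, and ALDH1A2 is its main synthesizing enzyme there, including in the epicardium.

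Of the 10 genes, 3, ALDH1A1, ALDH1A2 and RARA, were measured on exons of canine RefSeq genes, and the other 7 on human transcripts aligned to the dog genome, each counted over its whole span with introns (canFam4/UU_Cfam_GSD_1.0 throughout). The exon features are ALDH1A1 (chromosome 1, 85621438 to 85676732, plus strand, 13 exon segments and 2105 bases), ALDH1A2 (chromosome 30, 23392035 to 23488058, minus strand, 13 segments and 3363 bases) and RARA (chromosome 9, 22205220 to 22239665, minus strand, 9 segments and 2494 bases). RDH10 lies on chromosome 29 (22370973 to 22398482, plus strand), DHRS3 on chromosome 2 (83304568 to 83341288, plus strand) and ALDH1A3 on chromosome 3 (40494121 to 40531774, minus strand). CYP26B1 lies on chromosome 17 (51152383 to 51171521, plus strand) and CRABP2 on chromosome 7 (41259736 to 41264171, plus strand). RARG lies on chromosome 27 (44671822 to 44691942, minus strand). RARB, on chromosome 23 (18545130 to 19270859, minus strand), was counted over 725730 bases, by far the longest of these spans.

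Reads were counted without strand and on every feature they overlap, so genes that overlap a member can share its reads. The antisense gene ALDH1A3-AS1 lies within ALDH1A3 and held 5662 counts, or 8.89% of the 63711 counts of ALDH1A3. RDH10-AS1, within RDH10, held 781 counts, or 1.21% of those of RDH10. RARB shares 29 bases with TOP2B, an abundant gene on the other strand with 342805 counts, against 38214 counts for RARB. ALDH1A2 was the member with the fewest counts, 3601 over all dogs and 4 to 270 per dog, whereas each of the others had at least 458 counts in every dog.

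Total counts per dog ranged from 46185256 to 82361245. Levels are given as CPM (counts scaled to a common library size after edgeR's TMM normalization), and differences as log2 fold changes of edgeR's quasi-likelihood fit with sex as a fixed effect, positive where 10y-MMVD-CHF was higher. An FDR below 0.1 was the threshold. Over all features, 0.118% were called with edgeR and 0.327% with DESeq2, and 6.31% had an unadjusted edgeR p below 0.05. The markers of valve interstitial cells summed to 11800 to 31500 CPM, and all 10 of them were above 0 in every dog. Markers of heart muscle varied far more, from 153 to 63000 CPM summed over 19 genes. The 10y-MMVD-CHF female CAV1047 had the highest heart muscle sum, and results that rest on this dog are given with and without it. It and the 10y-MMVD-CHF male CAV614 were also left out together, because an earlier analysis of these data had found them the least correlated with the other dogs.

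None of the 10 genes was called by edgeR at an FDR below 0.1, and 3 of the 10 had an unadjusted p below 0.05. These were ALDH1A2 and ALDH1A3, both lower in 10y-MMVD-CHF, and RDH10, which was higher. DESeq2 called 2 of the 10, ALDH1A2 and RDH10, and limma voom called ALDH1A2 alone. Of the 10 log2 fold changes, 5 were above 0 and 5 below it, with a median of -0.066 against 0.0076 over all features. The median absolute log2 fold change was 0.191 for the 10 genes and 0.0865 for all features. ALDH1A2 and RDH10 are among the genes the study itself called on these dogs, so their place among the 10 is not independent evidence.

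**Figure D1:**
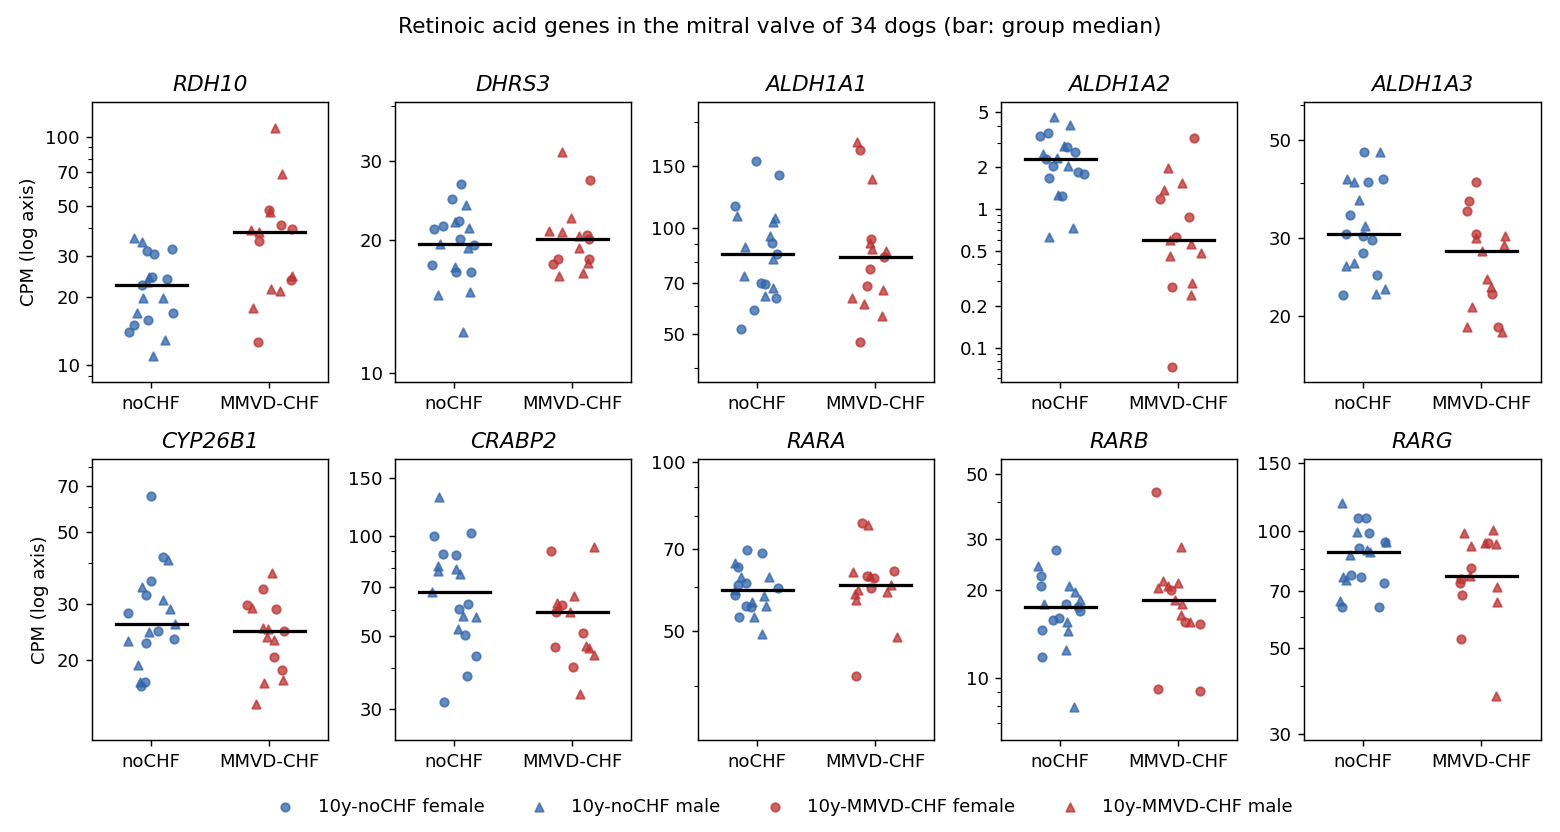
CPM of each of the 10 genes in each dog (vertical log axes, 1 panel per gene, each with its own range), with 10y-noCHF in blue and 10y-MMVD-CHF in red, circles for females, triangles for males and a bar at the group median. The groups stand furthest apart for ALDH1A2, with medians of 2.30 and 0.595 CPM, and for RDH10, with medians of 22.5 and 38.4 CPM, and they overlap for every gene.

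RDH10, the retinol dehydrogenase that starts the synthesis, ranged from 10.95 to 36.03 CPM with a median of 22.5 in the 10y-noCHF group. In the 10y-MMVD-CHF group it ranged from 12.7 to 109.6 CPM with a median of 38.4. Of the 15 10y-MMVD-CHF dogs, 8 lay above every 10y-noCHF dog, while the lowest of them, CAV1047, lay near the bottom of the 10y-noCHF range. The fitted level was 1.72-fold higher in 10y-MMVD-CHF (95% interval 1.26 to 2.35, log2 fold change 0.78, edgeR FDR = 0.368, DESeq2 FDR = 0.0886). The same direction was seen within each sex, with medians of 37.3 against 23.2 CPM in females and 38.4 against 19.7 CPM in males. The log2 fold change was 0.58 (edgeR FDR = 0.647) with the mean of the endothelium markers as a further term. It was 0.61 (edgeR FDR = 0.578) without the male CAV648, the dog with the highest RDH10 (109.6 CPM). The endothelium list as a whole had 1 of 10 markers called, the clotting protein VWF (log2 fold change 1.40, edgeR FDR = 0.0678). The median log2 fold change of the list was 0.04. Its markers summed to 516 to 1100 CPM (median 842) in 10y-noCHF and 728 to 1820 CPM (median 882) in 10y-MMVD-CHF. The top of the latter range was CAV648, and the next 10y-MMVD-CHF dog had 1170 CPM.

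DHRS3, which works against RDH10 by turning retinal back into retinol, was at nearly the same level in both groups. It ranged from 12.4 to 26.6 CPM (median 19.6) in 10y-noCHF and from 16.6 to 31.5 CPM (median 20.1) in 10y-MMVD-CHF, and most dogs of both groups lay in a shared range, with 3 10y-noCHF dogs below it and 2 10y-MMVD-CHF dogs above it. Its log2 fold change was 0.08 with a 95% interval of -0.11 to 0.27 (edgeR FDR = 0.945). As a description with no test, the ratio of RDH10 counts to DHRS3 counts had a median of 0.911 in 10y-noCHF and 1.83 in 10y-MMVD-CHF. The highest ratio, 6.60, was that of CAV648, the male with both the highest RDH10 and the lowest DHRS3 of the 10y-MMVD-CHF group.

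ALDH1A1, the first of the retinal-oxidizing enzymes, was the most abundant of the exon-based features. It ranged from 51.7 to 154.4 CPM (median 84.3) in 10y-noCHF and from 47.4 to 175.4 CPM (median 82.5) in 10y-MMVD-CHF. Neither group was shifted as a whole, since 8 of the 15 10y-MMVD-CHF dogs were below the 10y-noCHF median and 7 above it. The fitted difference was 0.03 on the log2 scale with a 95% interval of -0.32 to 0.37 (edgeR FDR = 0.989).

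ALDH1A2 ranged from 0.628 to 4.58 CPM (median 2.30) in the 10y-noCHF group. In the 10y-MMVD-CHF group it ranged from 0.0728 to 3.26 CPM (median 0.595). In 10y-MMVD-CHF, 14 of the 15 dogs were below the 10y-noCHF median and 8 were below every 10y-noCHF dog, whereas no 10y-noCHF dog was below the 10y-MMVD-CHF median. The exception was CAV1047, whose 3.26 CPM (127 counts) lay among the higher 10y-noCHF dogs. The lowest dog, CAV1259, had 4 counts, so its level is the least certain of all. The fitted level was 2.52-fold lower in 10y-MMVD-CHF (95% interval 1.54 to 4.13, log2 fold change -1.34, standard error 0.350, edgeR FDR = 0.284, DESeq2 FDR = 0.0387).

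The result for ALDH1A2 was larger without CAV1047, and edgeR then called it. The difference was then -1.67 on the log2 scale with an edgeR FDR of 0.0341, and leaving out any other single dog gave no call. Without both CAV1047 and CAV614 it was -1.61 (edgeR FDR = 0.0565). With the mean of the heart muscle markers as a further term it was -1.51 (edgeR FDR = 0.0415). With the mean of the mesothelium and epicardium markers as the term it was -1.35 (edgeR FDR = 0.191). The human XenoRefSeq feature of the gene, which holds 3990 counts and contains the exon feature, gave -1.30 (edgeR FDR = 0.288).

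Cells of the epicardium and mesothelium are known for ALDH1A2, so their markers were read beside it. Of the 12 listed, 11 were in the table and 8 were tested, while the defining markers MSLN, BNC1 and KRT19 were near 0 with 57, 37 and 47 counts over all dogs. Their summed level ranged from 83.3 to 188 CPM in 10y-noCHF and from 95.7 to 203 CPM in 10y-MMVD-CHF, and none was called. Most of that sum was TBX18, the only one of the 8 with a log2 fold change above 0, with a mean of 89.5 CPM in 10y-noCHF and 119 CPM in 10y-MMVD-CHF. The epicardial factors TCF21 and TBX18 had log2 fold changes of -0.46 (edgeR FDR = 0.375) and 0.41 (edgeR FDR = 0.607), and the mesothelial UPK1B had -1.11 (edgeR FDR = 0.470). The median over the 8 was -0.30 on the log2 scale, and the mean log2(CPM + 1) of the list was 2.57 in 10y-noCHF and 2.44 in 10y-MMVD-CHF. As with any bulk tissue, fewer cells of a type and less RNA per cell cannot be told apart.

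For the adipocyte markers the median difference was -0.83 on the log2 scale. Of their 8, 2 had an unadjusted edgeR p below 0.05, both lower, against 6.31% of all features, while LPL was higher (log2 fold change 0.37). The summed level of the adipocyte markers ranged from 8.74 to 314 CPM in 10y-noCHF and from 8.63 to 471 CPM in 10y-MMVD-CHF, with none called. Across dogs, with condition and sex means removed, ALDH1A2 was related to their mean by r = 0.406 (permutation adjusted p = 0.0802, rho = 0.329), with r of 0.210 within 10y-noCHF and 0.669 within 10y-MMVD-CHF. Without CAV1047 and CAV1732, the dogs farthest from the median of these markers, r was 0.273. Other marker lists had a lower adjusted p with ALDH1A2, as given below.

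ALDH1A3 ranged from 22.3 to 47.0 CPM (median 30.6) in 10y-noCHF and from 18.4 to 40.2 CPM (median 28.1) in 10y-MMVD-CHF. Of the 10y-MMVD-CHF dogs, 12 of 15 were below the 10y-noCHF median and 4 were below every 10y-noCHF dog, while 5 10y-noCHF dogs were above every 10y-MMVD-CHF dog. Its log2 fold change was -0.26 (95% interval -0.51 to -0.02, edgeR p = 0.0358, FDR = 0.764). In males all 9 10y-MMVD-CHF dogs were below the 10y-noCHF male median, against 2 of 6 in females, and the interaction of CHF and sex had an edgeR p of 0.223.

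Levels of different genes were compared per kilobase among the 3 exon features alone. ALDH1A1 had 42.5 ± 15.4 CPM per kilobase (SD, n = 34), RARA 24.1 ± 2.86 and ALDH1A2 0.507 ± 0.353. ALDH1A1 exceeded ALDH1A2 in every dog, by 23.3-fold to 1505-fold per kilobase. The median ratio was 62.3 in 10y-noCHF and 250.5 in 10y-MMVD-CHF, and both the lowest ratio (CAV1047) and the highest (CAV1259) belonged to 10y-MMVD-CHF dogs. The highest rests on the 4 ALDH1A2 counts of CAV1259, so its size is uncertain.

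**Figure D2:**
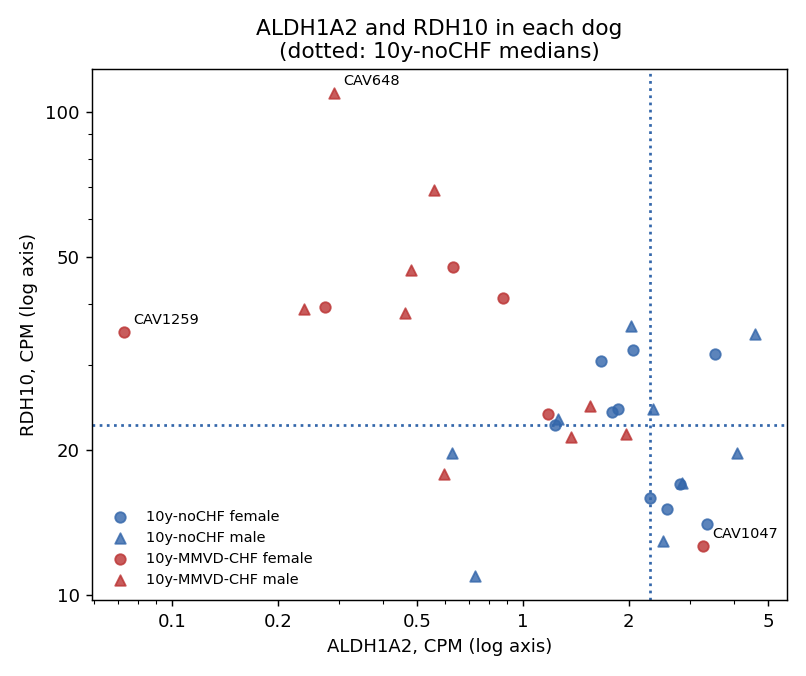
RDH10 against ALDH1A2 in each dog (CPM, both axes logarithmic), with 10y-noCHF in blue, 10y-MMVD-CHF in red, circles for females, triangles for males and dotted lines at the 10y-noCHF medians. The upper left field, with low ALDH1A2 and high RDH10, holds 11 of the 15 red points and 6 of the 19 blue points.

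Of the 15 dogs with CHF, 14 were below the 10y-noCHF median of ALDH1A2 and 11 were above that of RDH10. A joint count therefore adds little to these counts. Read together, ALDH1A2 below and RDH10 above the 10y-noCHF median described 11 of 15 dogs with CHF, against 6 of 19 without. A further 3 10y-MMVD-CHF dogs had low ALDH1A2 alone, and CAV1047 had neither. Over all dogs, with the means of condition and sex removed, the levels of the pair were not related beyond their spread (Pearson r = -0.337, permutation p = 0.069, adjusted p = 0.238 over 45 pairs, Spearman rho = -0.302, permutation adjusted p = 0.273). Within the 10y-MMVD-CHF group r was -0.698, and -0.586 without CAV1047 or -0.713 without CAV648 (both left out after the data were seen), whereas within the 10y-noCHF group r was 0.159. The difference between these values was not tested.

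CYP26B1, which oxidizes retinoic acid for removal, ranged from 16.6 to 65.1 CPM (median 25.9) in 10y-noCHF and from 14.6 to 37.3 CPM (median 24.7) in 10y-MMVD-CHF. The groups overlapped, and the 3 highest dogs of all were 10y-noCHF. Its log2 fold change was -0.22, with a 95% interval of -0.54 to 0.10 (edgeR FDR = 0.867). The other members of this family were hardly detected, with 34 counts for CYP26A1 and 6 for CYP26C1 over all 34 dogs, and they were not tested.

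CRABP2, the binding protein that delivers retinoic acid to RAR receptors, ranged from 31.4 to 131.5 CPM (median 67.8) in 10y-noCHF and from 33.3 to 92.7 CPM (median 58.8) in 10y-MMVD-CHF. In 10y-MMVD-CHF, 13 of 15 dogs were below the 10y-noCHF median, but none was below the whole 10y-noCHF range. The fitted difference was -0.32 on the log2 scale, with a 95% interval of -0.64 to 0.01 (edgeR p = 0.0557, FDR = 0.787).

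The receptor RARA had the narrowest range of the 10 genes in the 10y-noCHF group, as the ratio of the highest to the lowest dog (1.41). It lay between 49.5 and 69.75 CPM (median 59.1) in 10y-noCHF and between 41.7 and 77.7 CPM (median 60.4) in 10y-MMVD-CHF. The lowest and the highest dogs were both 10y-MMVD-CHF, and the medians were close. Its log2 fold change was 0.04 with a 95% interval of -0.08 to 0.17 (edgeR FDR = 0.955).

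RARB, itself a classic target of retinoic acid, ranged from 7.98 to 27.5 CPM (median 17.5) in 10y-noCHF and from 9.05 to 43.2 CPM (median 18.5) in 10y-MMVD-CHF. The highest value was that of CAV1047, and most other dogs of both groups shared a range. CAV373 (28.1 CPM) lay just above the 10y-noCHF range and CAV488 (7.98 CPM) below the 10y-MMVD-CHF range. The fitted difference was 0.16 on the log2 scale (95% interval -0.17 to 0.48, edgeR FDR = 0.933). Its direction rested on CAV1047, since the difference was -0.02 without that dog. RARG ranged from 63.6 to 117.8 CPM (median 88.2) in 10y-noCHF and from 37.7 to 100.5 CPM (median 76.7) in 10y-MMVD-CHF. Its groups overlapped, with the male CAV648 far below the others, and its log2 fold change was -0.16 with a 95% interval of -0.38 to 0.05 (edgeR FDR = 0.851).

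**Figure D3:**
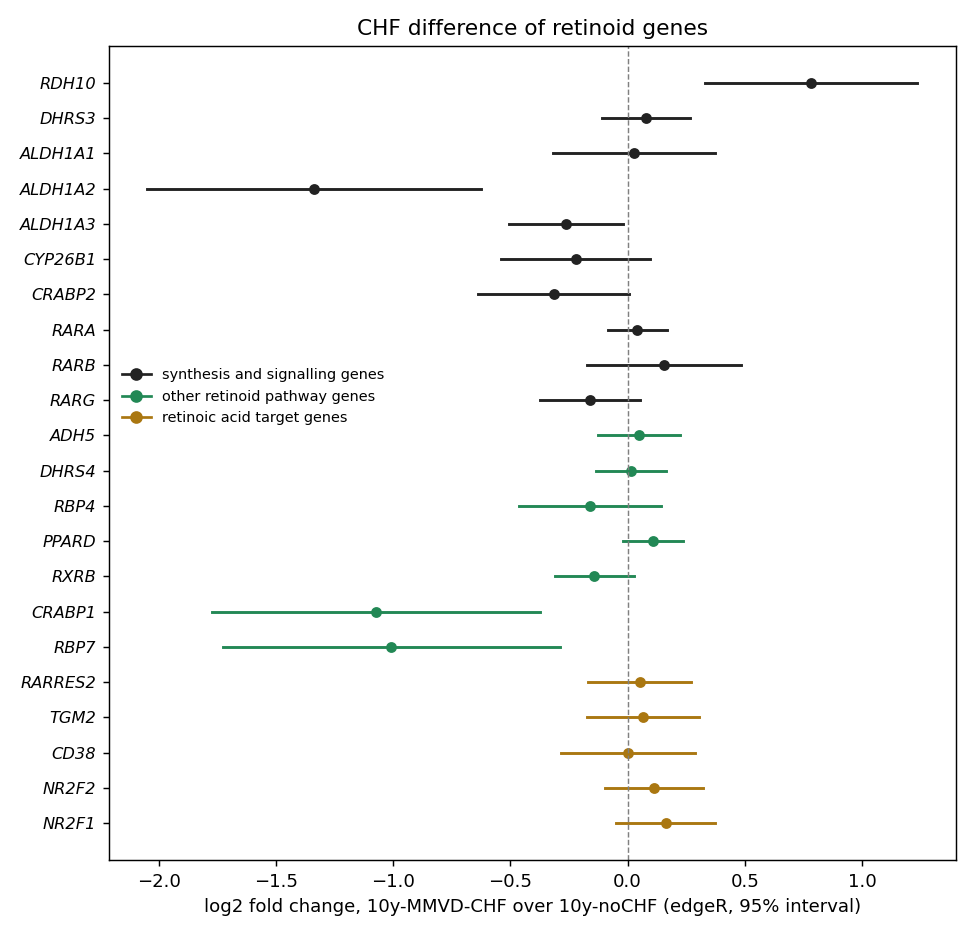
Log2 fold changes of 10y-MMVD-CHF over 10y-noCHF from edgeR (horizontal axis, points) with 95% intervals (lines) for the 10 genes in black, other retinoid pathway genes in green and retinoic acid target genes in brown. The intervals of ALDH1A2, ALDH1A3, CRABP1 and RBP7 lie below 0 and that of RDH10 lies above it.

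The genes did not differ detectably between the sexes. Males and females were compared in the same fit, where 0.143% of all features were called, and none of the 10 genes was called by edgeR or had an unadjusted p below 0.05. Whether the CHF difference itself differed between females and males was tested with an interaction term, which called 0% of all features with edgeR, while 1178 features had an unadjusted p below 0.05. None of the 10 genes had such a p, and the lowest was 0.223, for ALDH1A3. In females alone the difference on the log2 scale was -1.16 for ALDH1A2 and 0.56 for RDH10, and in males alone it was -1.49 and 0.96.

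A list of 35 other genes of the retinoid pathway was read beside the 10, of which 32 were tested. None was called by edgeR or DESeq2, and 2 of the 32 had an unadjusted edgeR p below 0.05, both lower in 10y-MMVD-CHF, a share close to the 6.31% of all features. These are described as values only. CRABP1, a second retinoic acid binding protein, ranged from 0.203 to 4.07 CPM (median 1.01) in 10y-noCHF and from 0.218 to 1.16 CPM (median 0.611) in 10y-MMVD-CHF. For CRABP1 the difference was -1.07 on the log2 scale (standard error 0.343, edgeR FDR = 0.446, DESeq2 FDR = 0.181). RBP7, a retinol binding protein, ranged from 0.0719 to 0.900 CPM (median 0.361) in 10y-noCHF and from 0.0354 to 0.492 CPM (median 0.154) in 10y-MMVD-CHF. For RBP7 the difference was -1.01 on the log2 scale (standard error 0.354, edgeR FDR = 0.556, DESeq2 FDR = 0.297). Both genes overlapped between the groups and were scarce, with at most 231 and 70 counts in a dog.

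The pathway genes with the most counts per kilobase of their features were ADH5, DHRS4, RBP4, PPARD and RXRB. ADH5, DHRS4 and PPARD are exon features, while RBP4 and RXRB were counted over spans with introns, so their order is not a comparison of levels. RBP4, the carrier of retinol in blood, was at 185.7 ± 60.6 CPM without CHF (SD, n = 19) and at 167.4 ± 49.3 CPM with it (SD, n = 15), which is -0.16 on the log2 scale (edgeR FDR = 0.921). The receptor partner RXRB had -0.14 (edgeR FDR = 0.838) and the nuclear receptor PPARD had 0.11 (edgeR FDR = 0.838). The dehydrogenases ADH5 and DHRS4 had log2 fold changes of 0.05 and 0.02 (edgeR FDR = 0.965 and 0.989). Over the 32 genes, 16 log2 fold changes were above 0 and 16 below, with a median of -0.012.

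Of 20 genes known to respond to retinoic acid, 18 were tested, and none was called by edgeR or DESeq2 or had an unadjusted edgeR p below 0.05. Of the 18 log2 fold changes, 13 were above 0 and 5 below, and the median was 0.067. Over all features, 10295 of 19568 were above 0, and the median was 0.0076. The difference between these values was not tested. Those with the most counts per kilobase were RARRES2, TGM2, CD38, NR2F2 and NR2F1, of which CD38 alone is an exon feature. TGM2, a transglutaminase, was at 433.7 ± 98.4 CPM without CHF (SD, n = 19) and at 445.3 ± 114.0 CPM with it (SD, n = 15), which is 0.07 on the log2 scale (edgeR FDR = 0.965). The secreted factor RARRES2 and the enzyme CD38 had log2 fold changes of 0.05 and 0.00036 (edgeR FDR = 0.971 and 0.999). The nuclear receptors NR2F2 and NR2F1 had 0.11 and 0.16 (edgeR FDR = 0.921 and 0.849).

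The spread among dogs, as the SD of log2(CPM + 1) with sex means removed, was wider in 10y-MMVD-CHF in 7 of the 10 genes and in 56.5% of all features, as a description with no test. This rested on CAV1047, since without it the spread was wider in 5 of the 10 genes and in 40.5% of features. Without CAV648 it was wider in 5 of the 10 genes and in 55.6% of features. Both dogs were left out after the data were seen.

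For RARA the SD was 0.129 without CHF and 0.223 with it, but 0.163 with CHF once CAV1047 was left out, which took the log2 ratio of the SDs from 0.79 to 0.34, under its approximate sampling error of 0.376. The SD of RDH10 was 0.494 without CHF and 0.790 with it, and 0.727 without CAV1047 or 0.668 without CAV648. The SD of CYP26B1 was 0.498 without CHF and 0.373 with it, and 0.376 with CHF once CAV1047 was left out. The log2 ratio of these SDs with all dogs was -0.42, close in size to the approximate sampling error of 0.376. The 10y-noCHF SD includes the female CAV447 at 65.1 CPM, where the next dog, CAV1041, had 41.9 CPM. The spread without CAV447 was not computed.

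CAV1047 and CAV648 mark the ends of several of these ranges. Among the 15 10y-MMVD-CHF dogs, CAV1047 had the lowest RDH10, ALDH1A1 and RARA and the highest ALDH1A2 and RARB. CAV648 had the highest RDH10 and the lowest DHRS3, RARG and CRABP2.

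The levels of the 10 genes were related to each other across the 34 dogs after the means of condition and sex were removed, over 45 pairs with Benjamini-Hochberg adjusted permutation p. An adjusted p of 0.05 was passed by 5 pairs. RARG and CRABP2 were the most closely related (Pearson r = 0.722, permutation adjusted p = 0.00045, Spearman rho = 0.763). For this pair r was 0.778 within 10y-noCHF and 0.724 within 10y-MMVD-CHF, while leaving out CAV444 and CAV1732, the dogs with the most distant CRABP2, gave 0.676.

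CYP26B1 was positively related to CRABP2 (r = 0.576, permutation adjusted p = 0.0164, rho = 0.560) and to RARG (r = 0.540, permutation adjusted p = 0.0164, rho = 0.553). RARA and RARG were also positively related (r = 0.558, permutation adjusted p = 0.0164, rho = 0.633). Without the 2 farthest dogs these values were 0.596, 0.560 and 0.632. They were 0.475, 0.603 and 0.658 within 10y-noCHF and 0.797, 0.528 and 0.509 within 10y-MMVD-CHF.

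RDH10 and RARB were negatively related (r = -0.494, permutation adjusted p = 0.026, rho = -0.478, permutation adjusted p = 0.0508), with r of -0.441 within 10y-noCHF and -0.528 within 10y-MMVD-CHF. This relation rested in part on CAV1047 and CAV488, the dogs farthest from the median of RARB, since r was -0.285 without them. When the heart muscle marker mean was removed as well, 2 of the 5 pairs still passed, RARG with CRABP2 (r = 0.598) and RDH10 with RARB (r = -0.538).

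**Figure D4:**
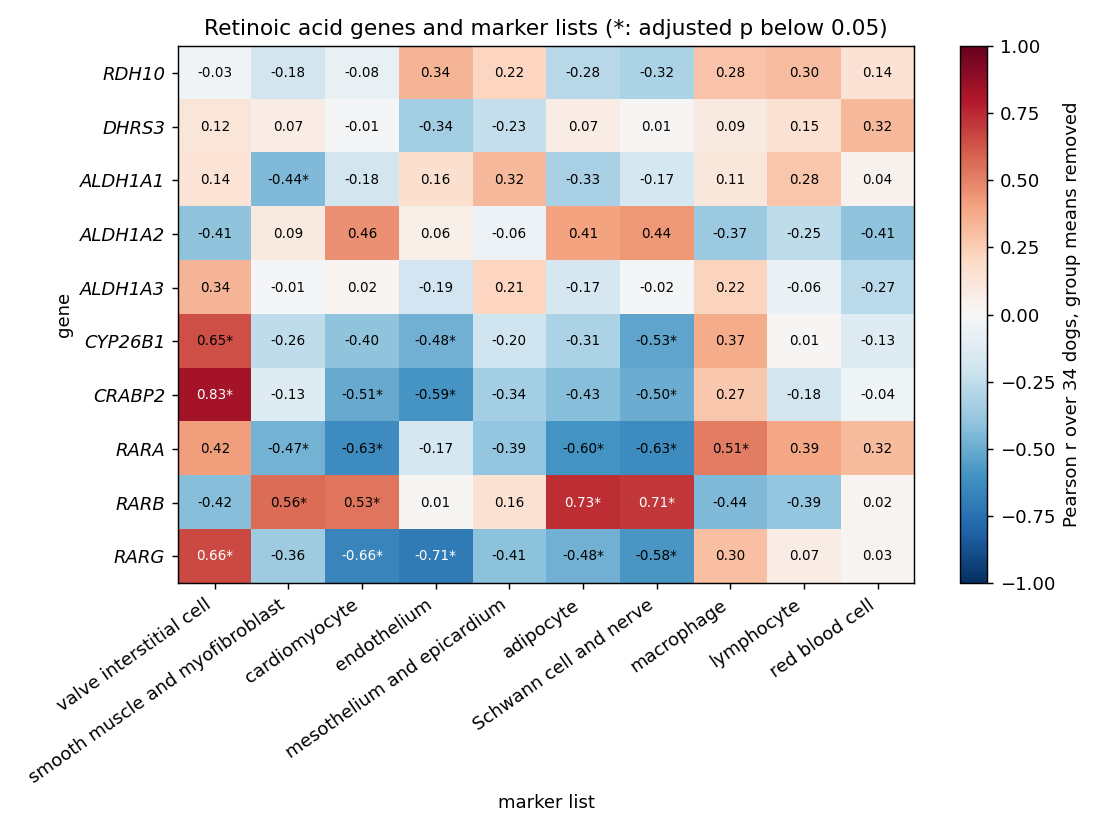
Pearson r over 34 dogs between each of the 10 genes (rows) and the mean log2(CPM + 1) of each marker list (columns), with condition and sex means removed, colored from blue (-1) to red (1) and with a star where the adjusted permutation p was below 0.05. Stars stand at 22 of 100 relations, of which 21 belong to CYP26B1, CRABP2, RARA, RARB and RARG.

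Relations with the markers of 10 cell types were tested in the same way, and 22 of the 100 passed an adjusted p of 0.05, 8 of them positive and 14 negative. Of the 22, 15 also passed by Spearman's rho. CRABP2 followed the valve interstitial cell markers most closely (r = 0.835, permutation adjusted p = 0.00025, rho = 0.852), and r was 0.815 within 10y-noCHF and 0.873 within 10y-MMVD-CHF. RARG (r = 0.663, rho = 0.733) and CYP26B1 (r = 0.645, rho = 0.633) were related to the same list, with permutation adjusted p of 0.00025 and 0.0025. Without the 2 farthest dogs these r were 0.799, 0.649 and 0.580.

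The receptors divided over the heart muscle markers. RARB was positively related to them (r = 0.534, permutation adjusted p = 0.0163, rho = 0.599), and RARA (r = -0.629, permutation adjusted p = 0.000857, rho = -0.639) and RARG (r = -0.658, permutation adjusted p = 0.0005, rho = -0.740) negatively. Within 10y-noCHF these r were 0.444, -0.569 and -0.681, and within 10y-MMVD-CHF 0.647, -0.733 and -0.668. Without the 2 farthest dogs they were 0.485, -0.573 and -0.647. The mean of the heart muscle markers ran from 1.51 to 10.9 on log2(CPM + 1), with no gap between neighbouring dogs above 0.92.

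**Figure D5:**
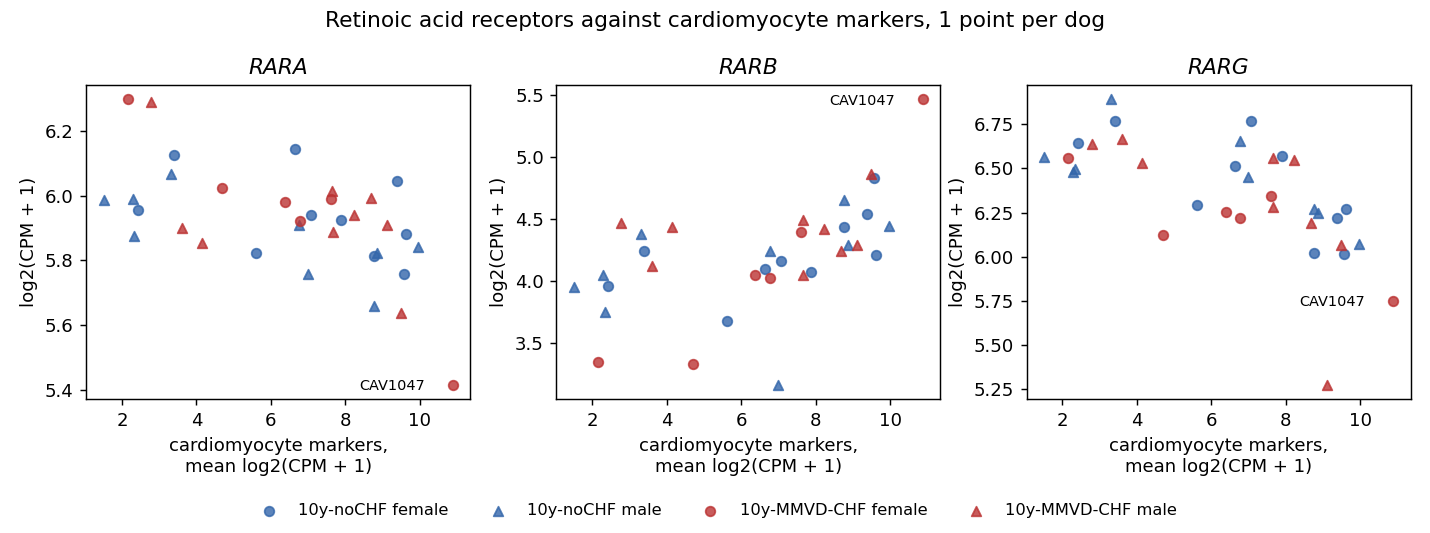
RARA, RARB and RARG (vertical axes, log2(CPM + 1)) against the mean log2(CPM + 1) of 19 cardiomyocyte markers (horizontal axes), with 1 point per dog, 10y-noCHF in blue, 10y-MMVD-CHF in red, circles for females and triangles for males. RARA and RARG are lower and RARB is higher in the dogs to the right, of which CAV1047 at 10.9 is the last.

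RARB was further related to the markers of adipocytes (r = 0.735, rho = 0.723) and of Schwann cells and nerve (r = 0.709, rho = 0.682), each with a permutation adjusted p of 0.00025. RARG and CRABP2 were negatively related to the endothelium markers (r = -0.707 and -0.590, permutation adjusted p = 0.0005 and 0.00464, rho = -0.622 and -0.555). Without the 2 farthest dogs these 4 values of r were 0.651, 0.695, -0.540 and -0.476. The part of cell content in the levels of these genes was not tested beyond the values given.

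ALDH1A2, ALDH1A3, RDH10 and DHRS3 had no relation with any of the 10 lists that passed. The nearest was that of ALDH1A2 with the Schwann cell and nerve markers (r = 0.437, permutation adjusted p = 0.0514, rho = 0.411), followed by its relations with heart muscle (r = 0.458) and with valve interstitial cells (r = -0.406), both with a permutation adjusted p of 0.0556. With the mesothelium and epicardium markers r was -0.062.

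The features whose levels followed ALDH1A2 most closely over the 34 dogs were sought among 16171 features with a mean of at least 1 CPM, with condition and sex means removed and as a description. They were CDK5RAP1 (Spearman rho = 0.741), COLCA2 (0.736), ARIH2 (0.718), SULT1E1 (0.713) and PEBP4 (0.709). None of the 5 was called between the groups by edgeR, with log2 fold changes from -0.35 to 0.10 and edgeR FDR of at least 0.887. For RDH10 they were MTHFD2P1 (rho = 0.860), MTHFD2 (0.836), ACTR3 (0.814) and ELOVL7 (0.807). MTHFD2 is a mitochondrial enzyme of folate metabolism, and MTHFD2P1 is named as its pseudogene. Reads may be shared or split between them, so they may not be separate signals. Whether these features overlap was not examined. ELOVL7 extends fatty acids. The log2 fold changes of these 4 lay between 0.05 and 0.09, with edgeR FDR of at least 0.954.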

How the data were processed

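Mitral valve RNA (poly-A selected, paired reads) was mapped by the authors to canFam4 with STAR, and the authors deposited raw counts made with featureCounts 2.0.3 on canine RefSeq and human XenoRefSeq features, with reads assigned to every overlapping feature, no strand and both reads of a pair counted. One column of counts belongs to no labelled sample and was not used. Counts were tested with edgeR 4.0.16 (R 4.3.3; TMM, sex as a fixed effect, minimum sum of 100 counts, FDR threshold 0.1 over 19568 features). DESeq2 1.42.0, the tool of the study, and limma 3.58.1 voom were alternatives. The approximate standard errors come from the test statistic. Correlations used log2(CPM + 1) and 100000 permutations of residuals within condition and sex, two-sided, for which the smallest p is 1e-05. The edgeR, DESeq2 and limma voom fits of the CHF difference with sex as a fixed effect, and the Pearson correlations, were tested on simulated data. The sex and interaction tests, the other alternatives and the rank correlations were not. The members, the lists of pathway, target and marker genes, the alternatives and the rule for named genes were chosen with earlier results of these data known. Named were all members, listed genes with an unadjusted p below 0.05 or among the 5 with most counts per kilobase, and the 5 features most like ALDH1A2 and RDH10, of which 1 is not reported here. The p-values of the fits weigh a difference between groups against the spread between dogs. Those of the correlations come from the permutations.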

Additional observations from a re-analysis of the deposited data

Results flagged for a closer look

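A dog far from its group was sought in the 10 genes and 4 groups of condition and sex, on log2(CPM + 1), which makes 40 tests of which chance would give about 2. In these, 4 were found, each described by the gap to the nearest dog as a share of the range of its group. DHRS3 was highest in the 10y-MMVD-CHF female CAV1876 (27.3 CPM, next dog 20.5 CPM, gap 0.655 of the range) and in the 10y-MMVD-CHF male CAV614 (31.5 CPM, next dog 22.4 CPM, gap 0.537). RARG was lowest in the 10y-MMVD-CHF male CAV648 (37.7 CPM, next dog 65.9 CPM, gap 0.567). CRABP2 was highest in the 10y-noCHF male CAV444 (131.5 CPM, next dog 81.5 CPM, gap 0.521).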

How the results depend on the processing

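Of the 10 genes, edgeR called 0, DESeq2 2, and 1 each was called with limma voom, with the cardiomyocyte term and without CAV614 and CAV1047. Leaving out each dog gave 0 to 1 calls among the 10 genes and 0 among the other pathway and target genes. Over all features 23 were called, against 64 with DESeq2, 13 without the sex term, 15 with the endothelium term, 9 at an FDR threshold of 0.05 and 0 in females alone and in males alone, and 8 to 28 when each dog was left out. ALDH1A2 kept its direction in all 16 alternatives (-1.80 with limma voom, limma FDR 0.0468, to -1.16 in females alone) and RDH10 in all 15 (0.56 to 0.98). The cause of these changes was not tested, except that females alone and males alone hold fewer dogs.

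Log2 fold changes near 0 turned direction. In females alone they were -0.0135 for ALDH1A1, -0.0278 for DHRS3, -0.0730 for RARRES2, -0.133 for TGM2 and -0.190 for CD38. RARA was -0.0122 and RARRES2 -0.0265 with the mesothelium and epicardium term, RBP4 was 0.0202 and CD38 -0.104 with the endothelium term, and CD38 was -0.0490 with the cardiomyocyte term. DHRS4 was -0.0355 with limma voom, -0.00455 with upper quartile normalization and -0.0481 without CAV614 and CAV1047, where RARB was -0.0321. CD38 was -0.0167 with upper quartile normalization, -0.00109 with filterByExpr and -6.1e-05 with counts halved. With each dog left out, the ranges were -0.0839 to 0.0842 for ALDH1A1, -0.0167 to 0.222 for RARB, -0.0147 to 0.0762 for ADH5, -0.0484 to 0.0463 for DHRS4, -0.00268 to 0.112 for TGM2, -0.00905 to 0.0983 for RARRES2 and -0.0870 to 0.0601 for CD38.

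Pairs of genes that passed fell from 5 to 2 on residuals on the cardiomyocyte marker mean. With log2(CPM + 0.1) 5 pairs and 22 relations with marker lists passed, and the spread ratio of ALDH1A2 on the log2 scale moved from 0.20 to 0.68. That of RARB was -0.194 without CAV1047 and that of RARG -0.126 without CAV648, against 0.453 and 0.527 with all dogs. No paired analysis was possible because the dogs of the groups are different animals and carry no shared number. ALDH1A2, CRABP1 and RBP7 had the fewest counts per dog of the genes named for a difference, and how far depth limits their differences was not tested.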
